A study of Mus musculus with 4 samples.

Results

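The p53 pathway was examined in mouse embryonic fibroblasts (MEFs) that lacked the chromatin protein Pf1 and in wild-type MEFs. It was followed through a list of 32 regulators and targets of p53, chosen by gene symbol and with earlier results of these data known. Of these, 30 genes had at least 1 probe set named for them alone, with 59 probe sets in all, out of 18193 named genes and 45101 probe sets on the array. Trp53 itself and Bax were not analysed here. The comparison was between 2 lines labelled Pf1 -/- (lines 2 and 4, called KO2 and KO4 here) and 2 labelled Pf+/+ (lines 5 and 6, called WT5 and WT6), all from the set numbered 7706 and each hybridised to 1 array. The cells were grown from torsos of embryos of day 13.5 or 14.5, kept at 6% oxygen and used at passage 2 to 3, and the labels name no Cre, transgene or treatment. Embryonic day and passage were not given for each line, nor whether the lines derive from separate embryos, and the p-values thus measure spread between these cultures only. Pf1, encoded by Phf12, is a PHD finger protein of Sin3 and histone deacetylase corepressor complexes, and the study concerned its part in keeping the nucleolus intact.

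The protein p53 is a transcription factor that is held at low levels by Mdm2, a ubiquitin ligase and itself the product of a p53 target gene. DNA damage and disturbed ribosome assembly both release p53 from Mdm2, the second through ribosomal proteins that leave the nucleolus and bind Mdm2. Its targets include genes for programmed cell death, for cell cycle arrest, for DNA repair and for metabolism, and the members are described in that order after the regulators. Embryonic fibroblasts are a common cell type for work on p53, since growth in culture at high oxygen activates it.

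Promoter sequences of 4 members that differed between the genotypes are shown first, because each holds a match to the p53 half-site, the 10-base consensus of which p53 binds a pair. They are the bases before the RefSeq start of each gene on GRCm38.p6, 5′ to 3′ on the gene's strand, with the match in capitals, and bases that lie within the RefSeq gene span are left out. Mdm2 was read from chr10:117710759-117711008, Ccng1 from chr11:40755310-40755536, Ei24 from chr9:36797335-36797584 and Gadd45a from chr6:67037408-67037657, all on the minus strand.
Mdm2: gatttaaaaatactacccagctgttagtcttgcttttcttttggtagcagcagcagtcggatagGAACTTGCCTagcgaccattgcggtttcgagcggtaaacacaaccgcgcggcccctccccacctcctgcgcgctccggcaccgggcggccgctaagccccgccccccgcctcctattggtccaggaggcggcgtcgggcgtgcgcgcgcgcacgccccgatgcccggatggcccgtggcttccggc
Ccng1: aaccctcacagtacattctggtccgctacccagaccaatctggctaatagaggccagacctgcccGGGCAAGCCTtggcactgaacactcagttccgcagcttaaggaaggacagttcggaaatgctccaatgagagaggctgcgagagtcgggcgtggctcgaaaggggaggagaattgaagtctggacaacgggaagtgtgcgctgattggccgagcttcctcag
Ei24: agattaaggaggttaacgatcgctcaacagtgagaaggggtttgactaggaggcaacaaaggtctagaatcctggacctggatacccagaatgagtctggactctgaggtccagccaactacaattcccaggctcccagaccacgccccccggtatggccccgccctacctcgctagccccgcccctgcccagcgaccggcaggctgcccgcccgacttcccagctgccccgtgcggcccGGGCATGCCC
Gadd45a: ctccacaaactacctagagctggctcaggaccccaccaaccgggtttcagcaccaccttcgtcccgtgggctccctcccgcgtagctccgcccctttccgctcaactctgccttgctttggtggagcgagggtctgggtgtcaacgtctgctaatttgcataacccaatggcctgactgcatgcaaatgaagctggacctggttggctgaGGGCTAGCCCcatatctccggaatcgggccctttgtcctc

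The matches began 186 bases before the start of Mdm2, 185 before that of Ccng1, 10 before that of Ei24 and 40 before that of Gadd45a. The first 3 of these genes were higher in the knockout and Gadd45a was lower, as described under each gene. RefSeq promoters were used for 22 of the 30 members. Any member windows on 1 chromosome were left out, a filter not set for all genes. At least 1 window of 250 bases held a half-site for 8 of these 22 genes (36.4%), against 2216 of 27025 genes of the promoter table (8.2%). Of the members called higher and among these 22, 4 of 5 had a match (Mdm2, Ccng1, Ei24 and Aen). So did 2 of 5 called lower (Gadd45a and Sesn1) and 2 of 12 not called (Polk and Ppm1d). The matches of Aen, Sesn1 and Polk lay within the RefSeq gene span, and the other window of each of these genes held none. Perp and Pmaip1, also called higher, were not among the 22. The half-site reads the same on both strands, and some genes have several windows (31 for the 22 members, 32851 in all), which gives them more chances of a match. A pair of half-sites with a spacer of at most 13 bases was in 0 of the 31 windows and in 0.0639% of all windows. These are matches of letters, not sites shown to be bound, and the p53-responsive promoter of Mdm2 is known to lie in its first intron, outside the stretch shown.

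Expression is given as log2 values of the deposited table, in which each probe set was centred on its median over the 4 arrays, so that 0 is the middle of the lines and not a signal level. Values of a gene are means over its probe sets. A difference is the knockout mean less the wild-type mean and has the standard error (SE) of limma's moderated fit, for n = 2 lines per genotype, and a gene was called at a Benjamini-Hochberg adjusted p under 0.05 over all 18193 genes. Because centring removed the levels, no gene can be called absent or set against another by level, and the fibroblast identity of the lines cannot be checked by level either. As a check of the genotype labels, Phf12 probe set 1434922_at stood at -0.37 in KO2 and -0.41 in KO4 but at 0.56 in WT5 and 0.37 in WT6 (difference -0.86 ± 0.109 SE, limma adjusted p = 0.0213 over all probe sets), while the difference of 1453579_at was 0.012 ± 0.0976. Their mean, the value of the gene, differed by -0.42 ± 0.0934 SE and was not called (limma adjusted p = 0.0504). With 1 line left out, 1434922_at was not called either (adjusted p from 0.0605 to 0.169). The labels do not say whether either probe set lies in the deleted stretch.

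Members moved in both directions. Of the 30 measured, 7 rose in the knockout (Mdm2, Pmaip1, Perp, Aen, Ei24, Ccng1 and Tigar), 5 fell (Bbc3, Gadd45a, Rprm, Sesn1 and Cd82) and 18 were not called, by limma adjusted p. Over all genes 12.2% were called, 5.21% higher and 6.95% lower, against 40% of the members. The list was chosen with earlier results of these data known, so the shares given here describe it and are not a test. The median of the members' differences was 0.11, with 19 above 0 and 11 below, and the median over all genes was -0.0027. The members' median was 0.016 without KO2 and 0.21 without KO4. Disregarding sign, the members' median difference was 0.39 against 0.15 over all genes. A difference of at least 0.5 on the log2 scale was seen in 13 of 30 members (43.3%) and in 13.3% of all genes, and 2 members, Perp and Pmaip1, passed 2, as did 0.368% of all genes. Both knockout lines lay beyond both wild-type lines in 23 of 30 members, or 76.7%, against 58.2% of all genes. Being at least 1.5-fold apart as well held for 4 members that were higher (Mdm2, Pmaip1, Perp and Ccng1) and 2 that were lower (Gadd45a and Sesn1), against 4.11% and 5.53% of all genes and 9.64% in either direction. With 2 lines per genotype, an exact permutation test of a single gene cannot go below p = 0.333, so the calls rest on the spread shared over genes in the limma fit.

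**Figure D1:**
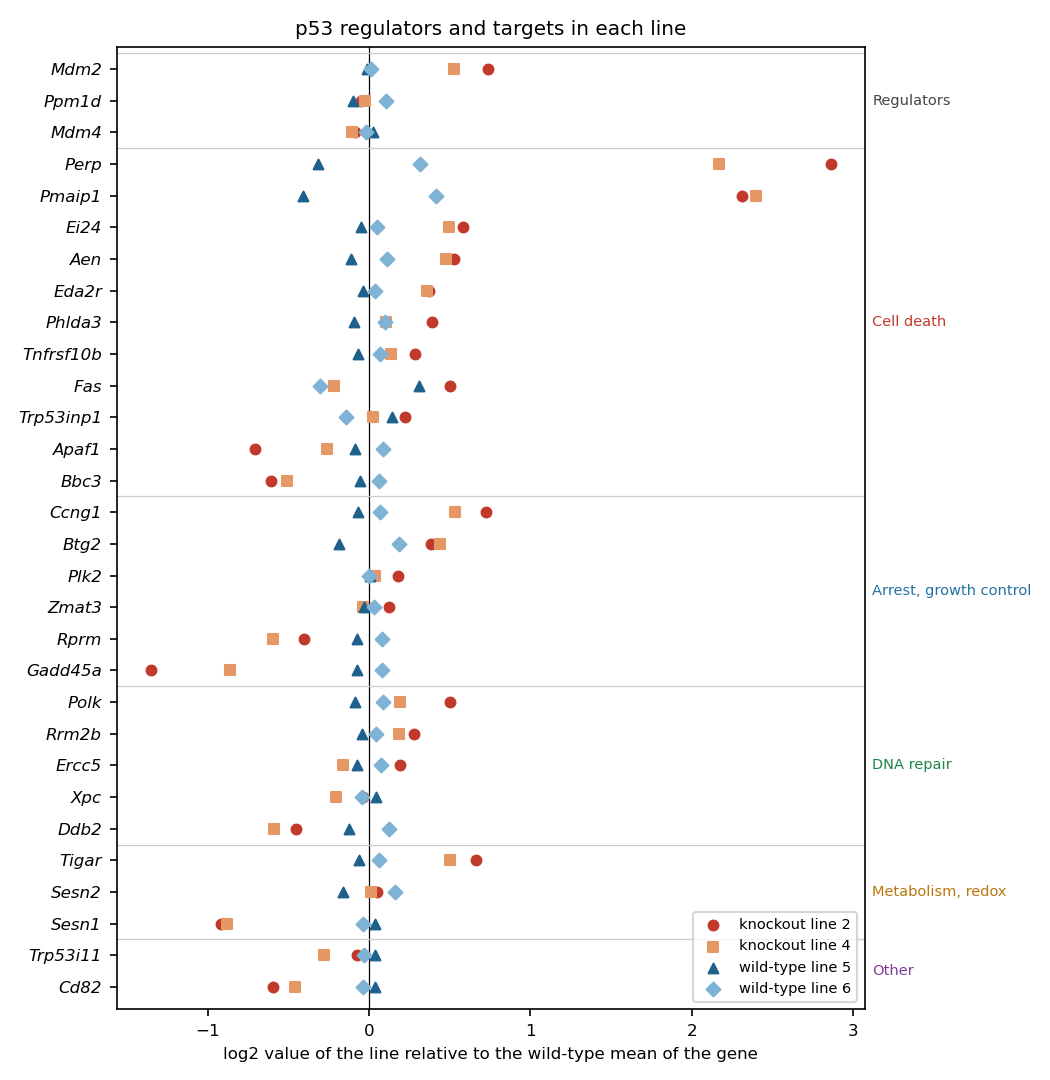
Value of each of the 30 measured members in KO2, KO4, WT5 and WT6, as log2 relative to the gene's wild-type mean, grouped by role. Perp and Pmaip1 stand apart at the right, Gadd45a and Sesn1 at the left, and the genotypes overlap for 7 members (Ppm1d, Fas, Trp53inp1, Zmat3, Xpc, Ercc5 and Sesn2).

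Among the regulators, Mdm2 rose and Mdm4 and Ppm1d were not called, where 5.21% of all genes were called higher and 6.95% lower. Mdm2 stood at 0.45 in KO2 and 0.24 in KO4 but at -0.30 in WT5 and -0.28 in WT6. Both knockout lines were above both wild-type lines, which differed by only 0.021 from each other. The difference was 0.63 ± 0.102 SE, or 1.55-fold, with limma adjusted p = 0.0276. Its 3 probe sets did not agree: 1423605_a_at and 1427718_a_at rose by 0.90 ± 0.107 and 0.94 ± 0.104 (limma adjusted p = 0.0196 and 0.0182 over all probe sets), and 1457929_at stood at 0.054 ± 0.127. With every probe set ending in _a_at, _s_at or _x_at left out, only 1457929_at remained and Mdm2 was not called (limma adjusted p = 0.839). The suffix _a_at marks probes shared by transcripts of 1 gene, and without the other 2 suffixes alone the difference of Mdm2 was 0.63.

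Mdm4, the relative of Mdm2 that masks the activation domain of p53, showed a difference of -0.095 ± 0.0797 over 4 probe sets, which ran from -0.38 to 0.098. Ppm1d encodes the phosphatase that switches the p53 response off. It stood at -0.054 in KO2 and -0.030 in KO4 but at -0.11 in WT5 and 0.099 in WT6, so the knockout lines lay between the wild-type lines. Its difference was -0.037 ± 0.102 SE.

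The cell death targets held the largest increases. Of 11 measured genes 4 rose, 1 fell and 6 were not called, where 5.21% of all genes were called higher and 6.95% lower. Of the 11 differences 9 were above 0, as were 8955 of those of all 18193 genes. The median of the 11 was 0.25, and it was 0.14 without KO2 and 0.39 without KO4. Perp and Pmaip1 ranked 4 and 8 from the top among the differences of all 18193 genes. Perp encodes a tetraspan membrane protein of p53-dependent death that is also a part of desmosomes. It stood at 1.62 in KO2 and 0.93 in KO4 but at -1.56 in WT5 and -0.93 in WT6. The lines of the genotypes did not overlap, and the difference was 2.52 ± 0.304 SE, a 5.72-fold rise (limma adjusted p = 0.018).

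Some epithelial genes moved beside Perp. Of 22 epithelial markers (31.8% called, against 12.2% of all genes) 6 rose, 1, Krt19, fell (named to complete the count) and 15 were not called. Their differences were above 0 for 17 and below 0 for 5. The smallest p-values were those of Krt8 (2.42 ± 0.21 SE, limma adjusted p = 0.0132) and Krt20 (1.94 ± 0.208, limma adjusted p = 0.016), both keratins of simple epithelia. Relative to the wild-type mean the median of the 22 was 0.18 in KO2 and 0.25 in KO4 but -0.033 in WT5 and 0.033 in WT6. Their part in the difference of Perp was not tested. In these bulk samples, fewer cells of a type and less RNA per cell cannot be told apart.

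Pmaip1 encodes Noxa, a BH3-only protein that neutralises Mcl1. It stood at 0.95 in KO2 and 1.04 in KO4 but at -1.77 in WT5 and -0.95 in WT6. The knockout lines nearly coincided and the wild-type lines were 0.82 apart, with no overlap. The rise was 5.12-fold (2.36 ± 0.273 SE, limma adjusted p = 0.0166).

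Bbc3, which encodes the BH3-only protein Puma, went the other way. Its values were -0.33 in KO2 and -0.23 in KO4 but 0.23 in WT5 and 0.34 in WT6, without overlap. It fell by 0.56 on the log2 scale (-0.56 ± 0.0921 SE, 1.47-fold, limma adjusted p = 0.0284). Noxa and Puma both act on the Bcl2 family upstream of mitochondrial permeabilisation, and their genes thus changed in opposite directions in these lines. Both are measured by a single probe set.

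Ei24, which encodes an endoplasmic reticulum protein induced by p53, rose 1.45-fold. It stood at 0.31 in KO2 and 0.22 in KO4 but at -0.32 in WT5 and -0.22 in WT6 (0.54 ± 0.089 SE, limma adjusted p = 0.0285). Aen, the gene of an apoptosis-enhancing nuclease, stood at 0.21 in KO2 and 0.16 in KO4 but at -0.43 in WT5 and -0.21 in WT6. Its rise of 1.42-fold (0.50 ± 0.107 SE, limma adjusted p = 0.0466) was largest in 1 of 4 probe sets, 1437373_at (1.05 ± 0.0913, limma adjusted p = 0.0146), the other three lying between 0.064 and 0.53. With the median of the probe sets in place of the mean, Aen was not called (0.45, limma adjusted p = 0.141).

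The death receptors and the remaining death genes were not called. Eda2r, the ectodysplasin receptor gene, stood at 0.17 in KO2 and 0.16 in KO4 but at -0.23 in WT5 and -0.16 in WT6, and just missed the threshold (0.36 ± 0.0818 SE, limma adjusted p = 0.0526). It was called under quantile normalisation (adjusted p = 0.0444). For Apaf1, the scaffold of the apoptosome, the difference was -0.48 ± 0.171 (limma adjusted p = 0.139), with KO2 at -0.54 well below KO4 at -0.086. The Trail receptor gene Tnfrsf10b (0.21 ± 0.101), the Akt inhibitor gene Phlda3 (0.25 ± 0.134) and Trp53inp1 (0.12 ± 0.134), which encodes a nuclear cofactor of p53, were not called either. Fas, the gene of the Fas ligand receptor, split each genotype: it was at 0.46 in KO2 and 0.26 in WT5 and at -0.26 in KO4 and -0.35 in WT6. Its difference of 0.14 ± 0.309 SE was smaller than the gap within either genotype.

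**Figure D2:**
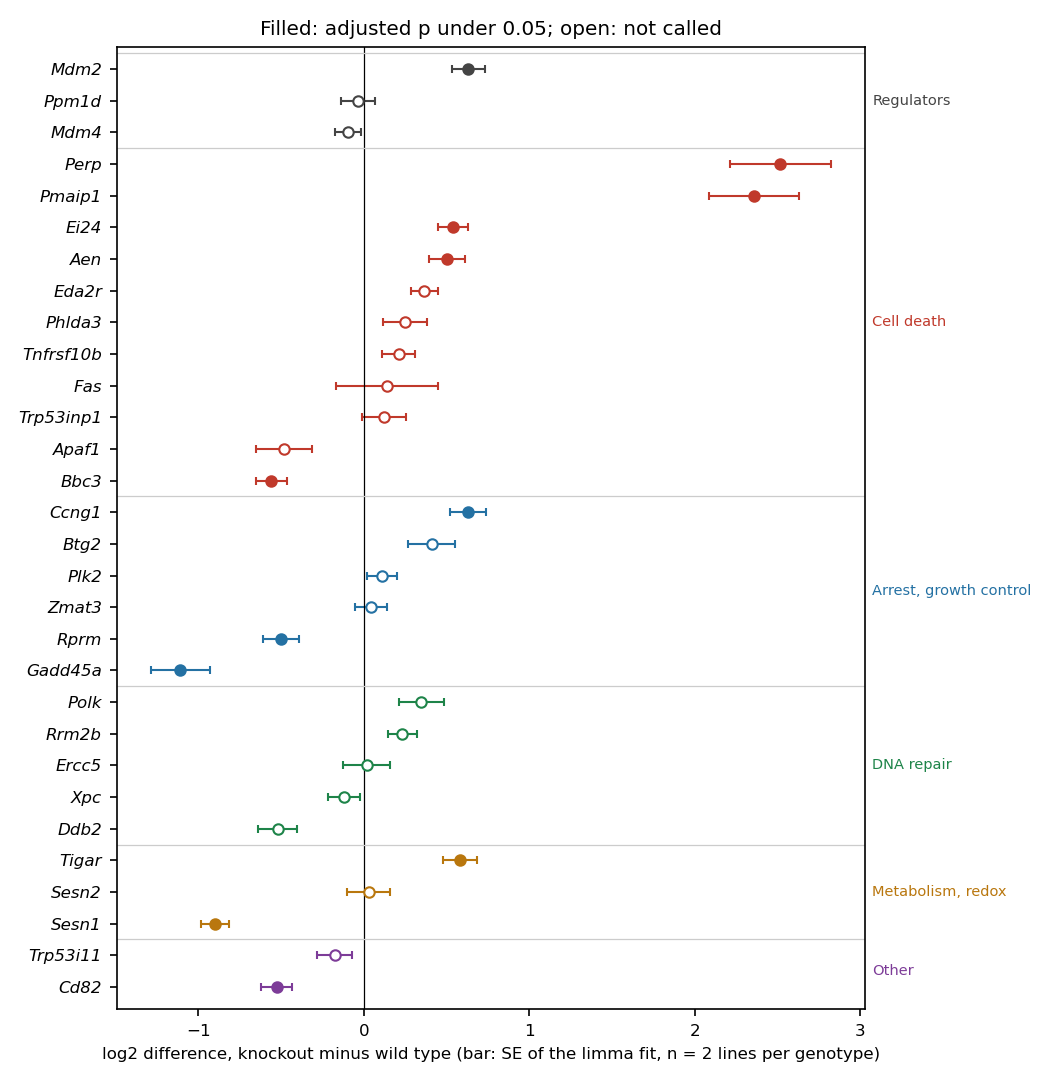
Difference of each measured member, knockout minus wild type on the log2 scale, with the SE of the limma fit as bars (n = 2 lines per genotype) and filled points for limma adjusted p under 0.05. The filled points lie on both sides of 0 in the death, arrest and metabolic groups, and none of the 5 repair genes is filled. Over all genes 12.2% were called.

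Arrest and growth control targets were split as well, with 1 of 6 higher, 2 lower and 3 not called, where 5.21% of all genes were called higher and 6.95% lower. The median difference of 0.074 was -0.00061 without KO2 and 0.15 without KO4. Ccng1 encodes cyclin G1, which recruits a phosphatase to Mdm2. It stood at 0.43 in KO2 and 0.23 in KO4 but at -0.37 in WT5 and -0.23 in WT6, without overlap. All 3 probe sets were higher in the knockout (0.50 to 0.71), and the gene rose 1.55-fold (0.63 ± 0.108 SE, limma adjusted p = 0.0313).

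Gadd45a, which encodes a stress sensor that binds Pcna and Cdk1, showed the largest decrease among the members. It was at -0.88 in KO2 and -0.39 in KO4 but at 0.39 in WT5 and 0.55 in WT6, and KO2 was the lowest by a clear margin. Gadd45a fell 2.16-fold (-1.11 ± 0.18 SE, limma adjusted p = 0.0276). Rprm, or Reprimo, whose product holds cells in G2, stood at -0.16 in KO2 and -0.35 in KO4 but at 0.16 in WT5 and 0.32 in WT6. Its decrease of 1.41-fold lay at the threshold (-0.50 ± 0.11 SE, limma adjusted p = 0.0494) and was not called with array weights (adjusted p = 0.0533), with the median of probe sets (0.0532) or without the 3 kinds of suffixed probe set (0.0542).

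Btg2, an antiproliferative gene induced by p53, had a difference of 0.41 ± 0.143 SE (limma adjusted p = 0.136), with WT5 at -0.47 apart from WT6 at -0.096. The polo-like kinase gene Plk2 (0.11 ± 0.0905) and Zmat3, the gene of an RNA-binding protein (0.043 ± 0.0944), showed little difference. Cdkn1a, the p53 target that encodes the Cdk inhibitor p21, is not a member and not in the counts of this group. Its values were 0.27 in KO2 and 0.16 in KO4 but -0.23 in WT5 and -0.16 in WT6. It rose 1.33-fold (0.41 ± 0.0881 SE, limma adjusted p = 0.0478), with adjusted p = 0.051 under array weights and 0.0764 without the 3 kinds of suffixed probe set.

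None of the 5 DNA repair targets was called by limma, against 12.2% of all genes, so 0 calls among 5 genes do not set this group apart. At an unadjusted limma p under 0.05 there was 1 higher and 1 lower gene, against 2603 and 2765 of all 18193 genes. Ddb2, the damage-recognition subunit of nucleotide excision repair, came closest. It stood at -0.16 in KO2 and -0.30 in KO4 but at 0.16 in WT5 and 0.41 in WT6, without overlap (-0.52 ± 0.119 SE, limma adjusted p = 0.0537). Of its probe sets, 1425706_a_at fell (-0.64 ± 0.129, limma adjusted p = 0.0476 over all probe sets) and 1436680_s_at, at -0.40 ± 0.124, was not called. Ddb2 was called under a robust variance prior (adjusted p = 0.0483) and without probe sets ending in _s_at or _x_at (0.0367).

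Rrm2b, the p53-inducible subunit of ribonucleotide reductase, had a difference of 0.23 ± 0.088 SE (limma adjusted p = 0.16) that was largest in probe set 1433773_at (0.52). The translesion polymerase gene Polk stood at 0.36 in KO2 and 0.052 in KO4, against -0.23 in WT5 and -0.052 in WT6 (0.35 ± 0.137, limma adjusted p = 0.174). Xpc, the other damage sensor of nucleotide excision repair, and Ercc5, its 3′ endonuclease, differed by -0.12 ± 0.098 and 0.016 ± 0.143, and the lines of the genotypes overlapped for both.

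Of the 3 metabolic targets 1 rose, 1 fell and 1 was not called, where 5.21% of all genes were called higher and 6.95% lower. Their median difference of 0.029 was -0.13 without WT5 and 0.19 without WT6. Sesn1 encodes a sestrin, a stress-induced inhibitor of mTORC1 signalling. It stood at -0.48 in KO2 and -0.44 in KO4 but at 0.47 in WT5 and 0.40 in WT6, and the lines of a genotype were at most 0.071 apart. Sesn1 fell 1.87-fold (-0.90 ± 0.0822 SE) and had the smallest adjusted p of all members (limma adjusted p = 0.014). Of its probe sets, 1433711_s_at, 1438931_s_at and 1454699_at fell by 1.05, 1.22 and 1.29, and 1444376_at stood at -0.041.

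Sesn2, a second sestrin gene that also responds to Atf4, had a difference of 0.029 ± 0.129 SE, with the knockout lines at 0.0057 (KO2) and -0.036 (KO4) between WT5 at -0.21 and WT6 at 0.12. Tigar encodes a fructose bisphosphatase that slows glycolysis. It was at 0.37 in KO2 and 0.21 in KO4 but at -0.35 in WT5 and -0.22 in WT6 and rose 1.49-fold (0.58 ± 0.101 SE, limma adjusted p = 0.0318). All 3 of its probe sets were higher in the knockout, from 0.29 to 0.87, of which 1439859_at was called (limma adjusted p = 0.0304 over all probe sets). Under the median of its probe sets, Tigar was just short of the threshold (0.47, adjusted p = 0.0504).

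Among the members outside these roles, Cd82, which encodes a tetraspanin known as a metastasis suppressor, fell 1.44-fold. It stood at -0.35 in KO2 and -0.22 in KO4 but at 0.28 in WT5 and 0.21 in WT6 (-0.53 ± 0.0915 SE, limma adjusted p = 0.0316). The decrease was larger in probe set 1416401_at (-0.86) than in 1449611_at (-0.19). Trp53i11, a p53-inducible gene, was not called (-0.18 ± 0.104).

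Measured probe by probe, 9 of the 59 member probe sets were called higher and 7 lower, against 3.92% and 4.4% of all probe sets (8.32% in either direction). Of the 18 members with more than 1 probe set, 7 had probe sets on both sides of 0. They were the uncalled genes Mdm4, Ppm1d, Ercc5, Sesn2, Plk2, Trp53inp1 and, at the level of rounding, Tnfrsf10b, whose probe set 1422344_s_at did not differ while 1421296_at stood at 0.42. No called member had probe sets of both signs.

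**Figure D3:**
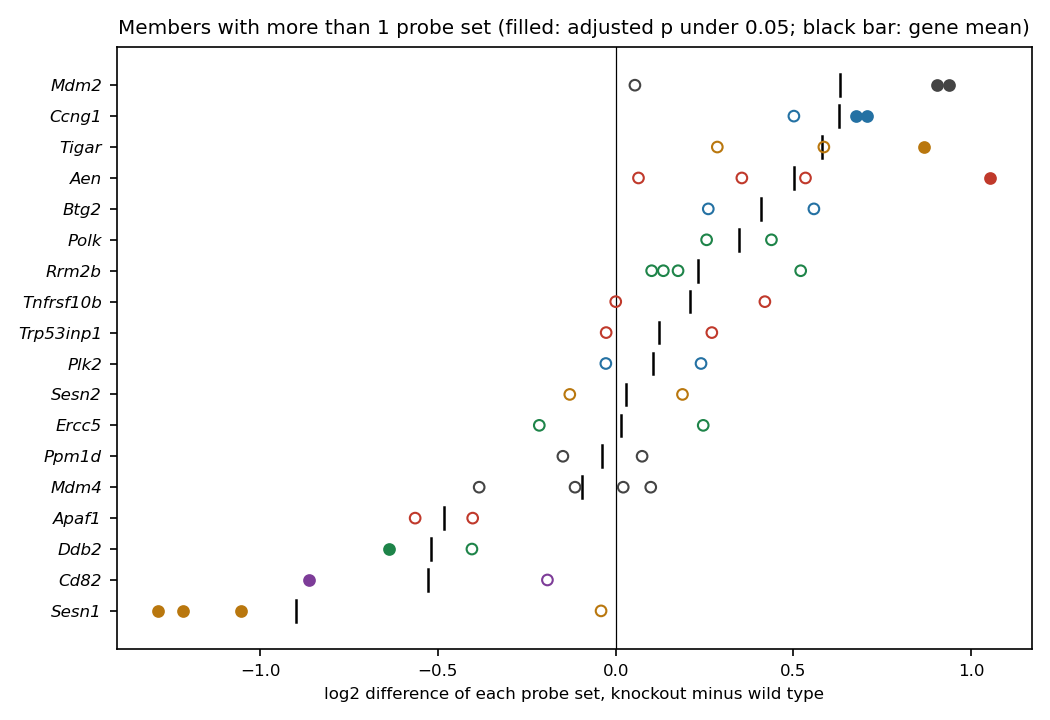
Log2 difference of every probe set, knockout minus wild type, for the 18 members with more than 1 probe set, with filled points for limma adjusted p under 0.05 over all probe sets and a black bar for the gene mean. Mdm2, Sesn1 and Aen each have a probe set near 0 beside others that changed.

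The lines of a genotype were not alike for the members. KO2 was above KO4 in 22 of 30 members (73.3%, against 51.9% of all genes), and WT5 was below WT6 in 22 of 30 (73.3%, against 51.5%). The median gap between the knockout lines was 0.15 for the members and 0.095 for all genes, and that between the wild-type lines was 0.14 and 0.12. With any 1 line left out, all 12 called members kept the sign of their difference. This had to be so, because their knockout and wild-type lines did not overlap. Each such fit has 1 residual degree of freedom, however, and most or all calls were lost, among the members and over all genes alike. The difference of Perp then ran from 2.17 to 2.86 and that of Gadd45a from -1.36 to -0.86.

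**Figure D4:**
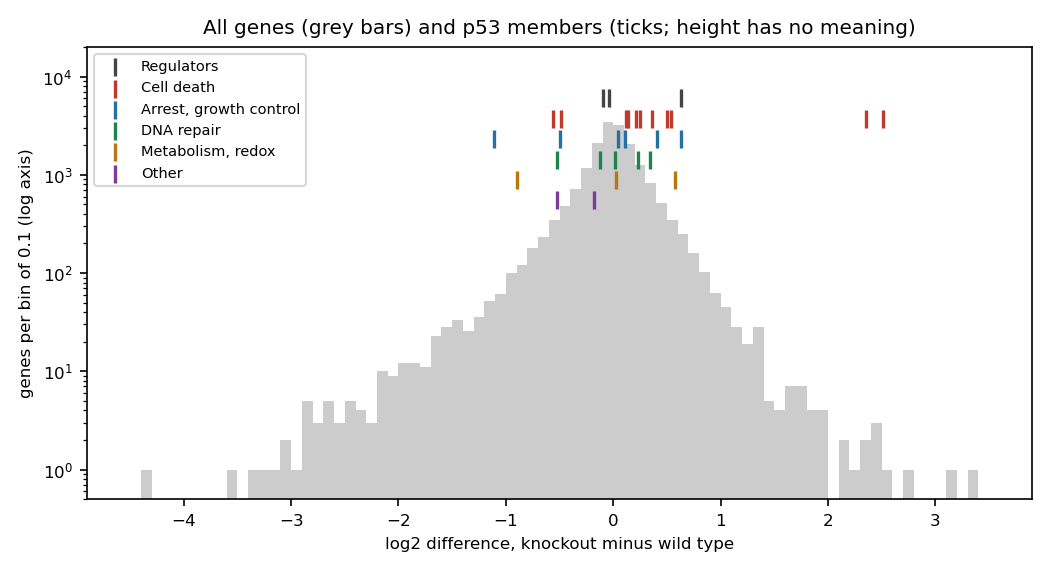
Histogram of the log2 differences, knockout minus wild type, of all 18193 genes (grey, logarithmic count axis, bins of 0.1), with the members as coloured ticks by role at arbitrary heights. Most members lie within 1 of 0 on the log2 scale, and Perp, Pmaip1 and Gadd45a lie beyond it.

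Other genes of the pathway were taken from 5 further lists. Among 26 measured p53 targets outside the members, 5 rose (Epha2, Fbxw7, Triap1, Dyrk3 and Cdkn1a), 4 fell (Dram1, Igfbp3, Lpin1 and Dcxr) and 17 were not called. The share called was 34.6%, against 12.2% of all genes (5.21% higher and 6.95% lower). The median difference was 0.13, and 0.047 without KO2 or 0.075 without WT5. Dyrk3, Igfbp3, Lpin1 and Dcxr are named to complete these counts and were chosen after their values were seen. The 2 largest changes were decreases. Dram1, a lysosomal gene of p53-dependent autophagy, was at -1.04 in KO2 and -0.69 in KO4 but at 1.58 in WT5 and 0.69 in WT6, and fell 4.02-fold (-2.01 ± 0.312 SE, limma adjusted p = 0.026). Igfbp3, an insulin-like growth factor binding protein, fell 5.55-fold (-2.47 ± 0.469, limma adjusted p = 0.0367), with WT5 at 2.17 well above WT6 at 0.77. Epha2, an ephrin receptor gene, rose 1.73-fold (0.79 ± 0.085, limma adjusted p = 0.016), Fbxw7, a ubiquitin ligase subunit, 1.55-fold (0.63 ± 0.0943) and Triap1, a mitochondrial survival factor, 1.53-fold (0.61 ± 0.104).

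Nucleolar and ribosomal proteins that bear on Mdm2 or p53 were a further list with 12 of its 15 genes measured. Of these, 4 rose, 1 fell and 7 were not called, a share called of 41.7% against 12.2% of all genes, with a median of 0.25. Gnl3, which encodes nucleostemin, a nucleolar GTPase that can bind Mdm2, rose 1.98-fold (0.98 ± 0.121 SE, limma adjusted p = 0.0182). Rrs1, a ribosome assembly factor of the 5S particle, rose 1.86-fold (0.90 ± 0.12), Mybbp1a, a nucleolar protein that can promote p53 acetylation, 1.64-fold (0.71 ± 0.118) and the nucleolar phosphoprotein gene Nolc1 2.28-fold (1.19 ± 0.209). Nop53, whose product keeps Rpl11 in the nucleolus, fell 1.32-fold (-0.40 ± 0.0791, limma adjusted p = 0.0399) but not without probe sets ending in _s_at or _x_at. It was the fifth called gene of this list. Rpl11, the Mdm2-binding ribosomal protein, differed by -0.028 ± 0.0786, a value named here after it was seen. Cdkn2a, whose locus encodes the Mdm2 inhibitor Arf as well as p16, stood at -0.25 in KO2 and 0.17 in KO4 but at -0.17 in WT5 and 0.62 in WT6, overlapping between the genotypes (-0.27 ± 0.293).

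Of 24 kinases, modifiers and partners upstream of p53, 2 rose and 22 were not called. This share of 8.33% was near the 12.2% of all genes, and the median was 0.054. The 2 were the deacetylase gene Sirt1 (0.56 ± 0.0833 SE, 1.47-fold, limma adjusted p = 0.0241) and Hipk2, a kinase that phosphorylates p53 (0.46 ± 0.0785, 1.38-fold, limma adjusted p = 0.0299). Next by p-value were Pml, the gene of the nuclear body scaffold (-0.27 ± 0.0816), and Daxx (-0.46 ± 0.156), a partner of Pml, neither of which was called. Of 21 Bcl2 family and caspase genes 2 rose, or 9.52%: the Bax relative Bok (0.71 ± 0.122, 1.63-fold, limma adjusted p = 0.0315) and Cycs, cytochrome c (0.65 ± 0.12, 1.57-fold, limma adjusted p = 0.0347). Casp6, an executioner caspase (-0.43 ± 0.112), and Bcl2l11, which encodes the BH3-only protein Bim (-0.54 ± 0.162), were not called. For the 3 genes of the Aspp family, which steer p53 between its targets, limma made 0 calls, with 0 at an unadjusted p under 0.05, and the differences ran from -0.35 (Ppp1r13b) through -0.15 (Ppp1r13l) to 0.20 (Trp53bp2).

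**Figure D5:**
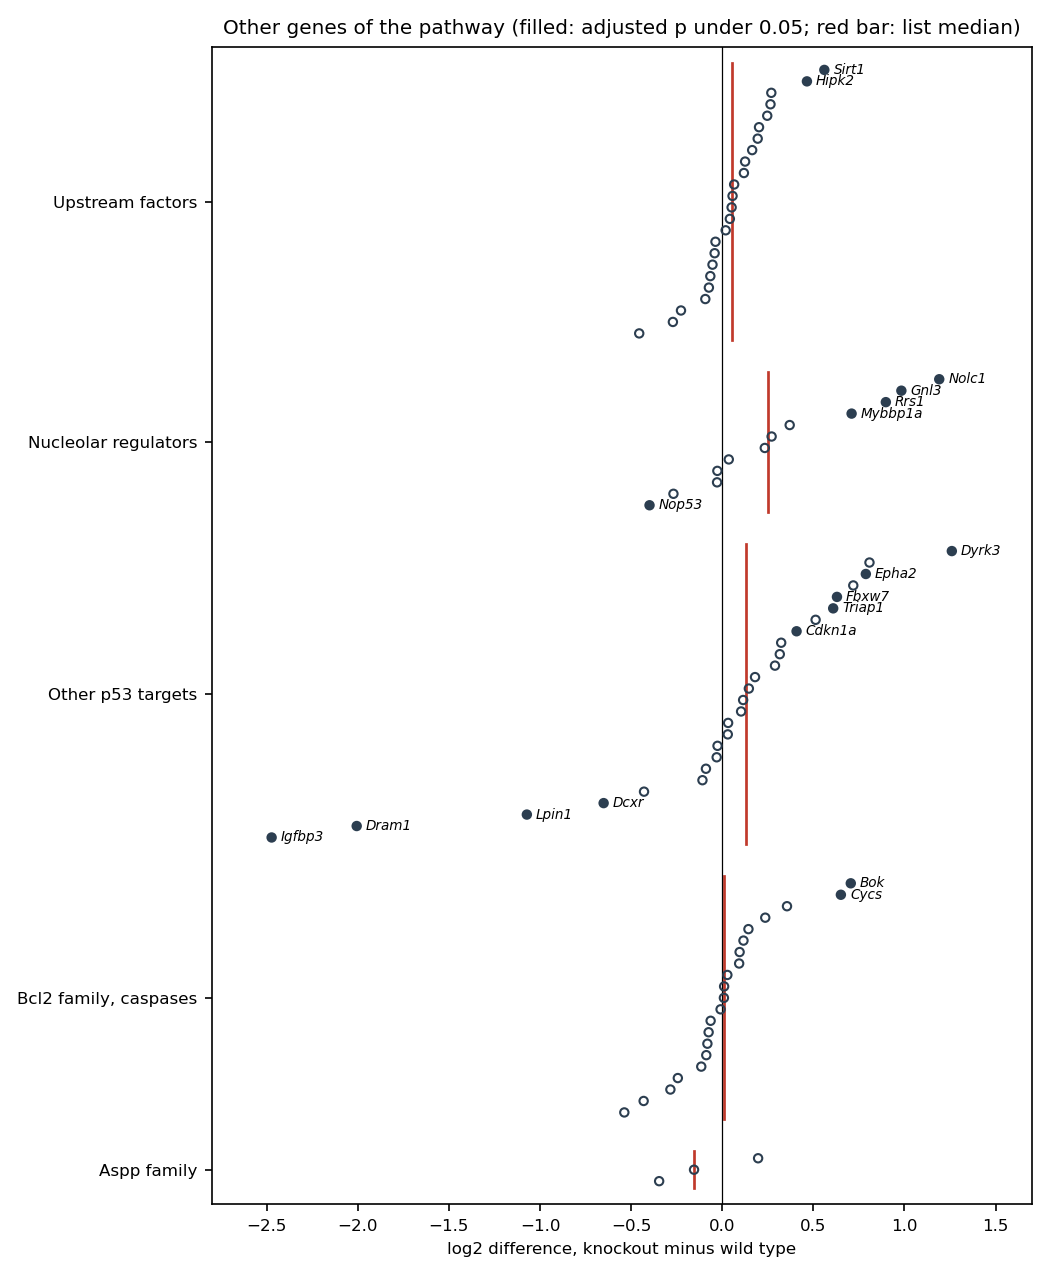
Log2 difference, knockout minus wild type, of the measured genes of the 5 further lists, one point per gene, filled and named where limma adjusted p was under 0.05, with the list median as a red bar. Medians lie between -0.15 for the Aspp family and 0.25 for the nucleolar regulators, and the target list reaches from Igfbp3 at -2.47 to Dyrk3 at 1.26.

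Markers of other cells moved with genotype beside these results. Over all genes 5.21% were called higher and 6.95% lower. Of 12 smooth muscle markers 8 rose (median 0.68), with the smallest p-values for Myh11 and Mcam. Of 11 fibroblast markers 6 fell and 1 rose (median -0.59), and the smallest p-values were those of Col1a1, which fell, and Fn1, the gene that rose. Macrophage markers varied by line, with medians of 0.043 in KO2 and 0.78 in KO4 but 0.81 in WT5 and -0.81 in WT6 relative to the wild-type mean. All 12 of their differences were above 0, with a median of 0.42 that was -0.26 without WT6. By limma 0 of 12 were called, with 0 at an unadjusted p under 0.05. Of 10 endothelial markers 1 rose (Emcn) and 2 fell (Tek and Egfl7). Egfl7 was named to complete that count. The part of these markers in the members' differences was not tested.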

How the data were processed

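Total RNA of 4 lines was hybridised to Affymetrix mouse arrays, 1 array per line. The deposited log2 values came from Affymetrix Expression Console and RMA, per the submitters' processing notes, which name neither a version nor the log base. Base 2, that of RMA, was assumed here. In the deposited table the median of each probe set over the 4 arrays was 0 (100% of probe sets), a centring that the labels do not describe. It removes signal levels, so no filter on dim probe sets could be set, and precision is limited by the number of arrays. The series text names the 430A 2.0 array, whereas the 45101 probe sets matched the annotation of the larger version of that array.

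The platform annotation gave 64 controls, 34958 probe sets with 1 gene, 932 several and 9211 with no gene name. Entrez identifiers matched 34754 to RefSeq (GRCm38.p6), which changed 0 symbols. Probe sets of 1 gene, without controls, were averaged into 18193 genes.

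The genotypes were compared by lmFit and eBayes (limma 3.58.1, R 4.3.3) without covariates, with 2 residual and 3.04 prior degrees of freedom, and adjusted by Benjamini-Hochberg over all genes, or over all probe sets where stated. The fit was tested on simulated data in which genes varied independently, a check of the code and not of the calls in these lines. Promoters were searched in 250 bases before each RefSeq start. All members are named. From each further list up to 4 genes with the smallest p, and from each marker list up to 2, are named, as are Cdkn1a, Cdkn2a and Phf12, and others only where the text says so. The members and lists were chosen with earlier results of these data known. Alternatives were the median of probe sets, 2 filters on probe set suffixes, quantile normalisation, array weights, a robust prior and each line left out.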

Additional observations from a re-analysis of the deposited data

How the results depend on the processing

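With quantile normalisation, array weights, a robust prior or the median of probe sets, 9 to 13 of 30 members were called. Over all 18193 genes, 2063 to 2664 were called in these settings, against 2212 in the main fit. All 12 members called in the main fit kept their direction in each setting. Array weights and the robust prior left the differences themselves unchanged, so direction could change only under the other settings. At least 1.5-fold without overlap, with no test, left 4 members higher and 2 lower, against 4.11% and 5.53% of all genes. Without probe sets ending in _a_at, _s_at or _x_at, 4 member probe sets were called lower. Calls fell among upstream factors (1 higher), further targets (2 higher), Bcl2 and caspase genes (1 higher) and nucleolar regulators (0 lower). Fewer probe sets entered under this filter, and the part of that in the lost calls was not tested. Without only _s_at and _x_at, a filter added after the data were seen, 0 nucleolar regulators were lower. Under both filters the regulator median and Mdm4 were at 0.0017. Quantile normalisation put the regulator median at -0.059 and Ercc5 at -0.0029. The causes of these 2 shifts were not tested.

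Leaving out each line in turn (1 residual degree of freedom) gave 0 to 87 limma calls higher and 0 to 234 lower, 0 to 1 members in each direction, 0 member probe sets and 0 genes of the further lists, with 3296 to 5418 genes at an unadjusted p under 0.05. Only omission of KO4 kept more than 1 gene called (321). The regulator median then ran from -0.074 to 0.066 the metabolic median from -0.13 to 0.19, the repair median from -0.16 to 0.19, the arrest median from -0.00061 to 0.15, the death median from 0.14 to 0.39 and the Bcl2 and caspase median from -0.038 to 0.027, and the difference of Phf12 probe set 1434922_at from -0.95 to -0.76 and that of 1453579_at, which was not called in any setting, from -0.051 to 0.075. Signs changed for uncalled genes: Ppm1d (-0.14 to 0.066), Fas (-0.22 to 0.50), Trp53inp1 (-0.021 to 0.26), Zmat3 (-0.036 to 0.12), Ercc5 (-0.16 to 0.19), Sesn2 (-0.13 to 0.19) and Cdkn2a (-0.66 to 0.13). No paired analysis was possible because the genotypes share no line numbers.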
